A study of Mus musculus with 30 samples.

Results

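The PERK-ATF4 stress response genes are 10 genes chosen by symbol among the 39179 genes of the count files: Eif2ak3, Atf4, Ddit3, Atf3, Asns, Psat1, Chac1, Sesn2, Trib3 and Ppp1r15a. Their messenger RNA was measured by sequencing of whole ventral prostate from male C57/BL6 mice. From weaning, the mice ate diets of equal energy whose fat was linseed oil (LO), soybean oil (SO) or pork fat (PF, labelled Por Fat). Each diet was given for 12 or 32 weeks, which makes 6 groups of 5 mice, 30 mice in all. The mice on a diet for 32 weeks were also older than those on it for 12 weeks, and time on the diet, age and handling batch cannot be told apart. No source used here says which mice were littermates or cage mates.

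PERK, the product of Eif2ak3, is a kinase of the endoplasmic reticulum (ER) membrane that responds to unfolded proteins in the ER. It phosphorylates the translation factor eIF2 alpha, which lowers the translation of most messenger RNAs while that of Atf4 is favoured, and ATF4 then turns on genes for amino acid supply, antioxidant defence and further transcription factors. Related kinases that respond to amino acid shortage, haem shortage or double-stranded RNA act on the same site, and the luminal cells of the ventral prostate pass large amounts of secreted protein through the ER. Phosphorylation, translation and protein levels were not measured here.

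The samples carried the markers of the labelled tissue. Sbp, the spermine-binding protein of ventral prostate secretion, had the highest mean of its list in every group, from 110212 CPM (counts scaled to library size, per 1000000) in the LO group at 32 weeks to 218799 CPM in the SO group at 12 weeks. Among luminal epithelium markers, group means ran from 330.5 to 409 CPM for Krt8, from 536 to 621 CPM for Krt18, from 468 to 565 CPM for Cdh1 and from 356 to 389 CPM for Epcam. Of 4 seminal vesicle genes (Svs2, Svs4, Svs5 and Svs6), the highest summed level in a mouse was 0.276 CPM. In whole tissue, fewer cells of a type and less RNA per cell cannot be told apart.

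All 10 genes passed the filter on low counts at 12 weeks, at 32 weeks and over the 30 mice. Per length, as CPM per kilobase of exon (RPKM), the order of their mean levels over the 30 mice was Atf4 (57.4), Asns (22.7), Atf3 (20.1), Eif2ak3 (16.6), Ddit3 (9.73), Ppp1r15a (7.82), Sesn2 (4.26), Psat1 (3.33), Trib3 (1.30) and Chac1 (1.06). Levels of single mice overlapped between all neighbours in this order except Atf4 and Asns, and Psat1 and Trib3. Atf4 was the most abundant of the 10, and the glutathione-degrading enzyme gene Chac1 the least. The spread between mice of a group differed widely among them. The standard deviation (SD) of log2 CPM within groups was 1.12 for Atf3 and 0.65 for Ddit3, higher than that of 97.2% and 90.5% of 16605 genes. Eif2ak3, with a within-group SD of 0.15, stood above only 22.5% of genes, and Atf4, with 0.18, above 34.2%. Among the 1000 genes nearest in level, Atf3 exceeded 99.6% and Ddit3 96.8%, while Asns exceeded 77.5% and Eif2ak3 48.0%.

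**Figure D1:**
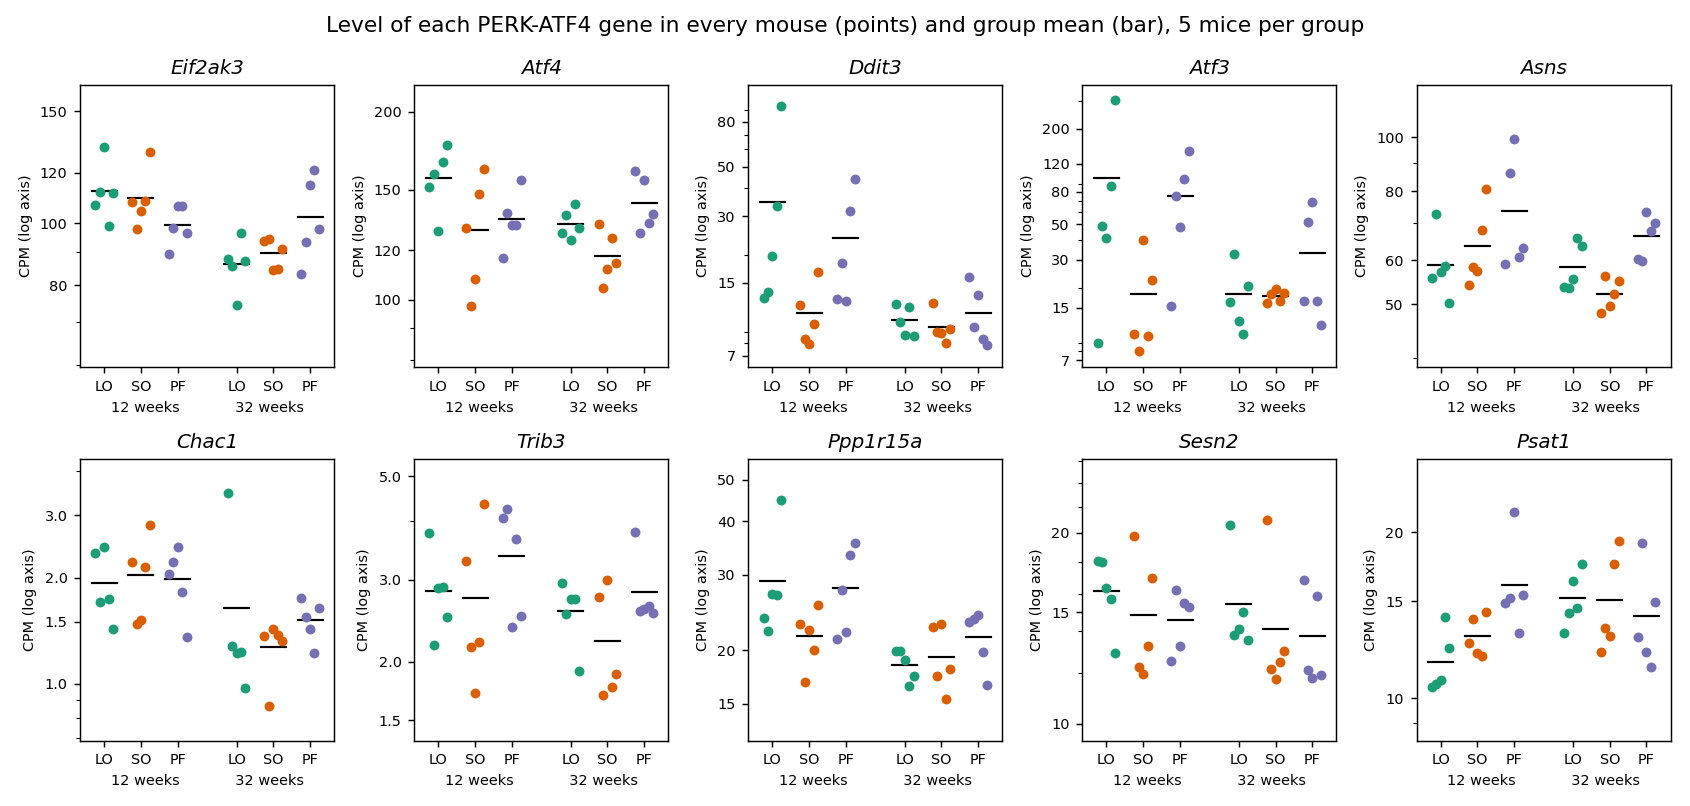
Levels of the 10 genes in CPM in each mouse by diet and time point, on a log axis, with the mean of each group as a bar. Each group has 5 mice.

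Promoter sequence is shown for the genes of the 10 whose window holds a motif tied to this response. The RefSeq promoter table (GRCm38.p6) held all 10 genes, with 11 promoters because Psat1 has 2, and the 250 bases before each start were searched on both strands. The core TGATGNAA of the C/EBP-ATF response element, which ATF4 binds with C/EBP partners, was found in 3 of the 10 genes (Atf3, Asns and Chac1), compared with 3.91% of all 27025 genes in the table. The cyclic AMP response element TGACGTCA was found in 1 of the 10 (Ppp1r15a), compared with 1.77% of genes. The ER stress element, CCAAT and CCACG with 9 bases between them, was found in 0 of the 10 and in 0.130% of genes. Capitals mark the motif in the windows, written 5′ to 3′ along the strand of the gene; in Atf3 and Chac1 the match TGATGCAA lies on the opposite strand. The windows are chr1:191183390-191183489 (Atf3, minus strand), chr6:7693214-7693243 (Asns, minus strand), chr2:119351003-119351102 (Chac1, plus strand) and chr7:45526269-45526326 (Ppp1r15a, minus strand). Motif ends lie 103, 16, 186 and 5 bases before the RefSeq start in Atf3, Asns, Chac1 and Ppp1r15a. The Asns window is short because all 30 of its bases lie in annotated exons of GENCODE M21. Its match thus lies before the RefSeq start but within an exon of that annotation. A match is a description of letters, and a window without one lacks only these letters.
Atf3: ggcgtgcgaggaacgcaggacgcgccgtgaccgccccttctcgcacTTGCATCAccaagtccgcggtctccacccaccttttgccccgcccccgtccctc
Asns: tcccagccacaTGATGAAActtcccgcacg
Chac1: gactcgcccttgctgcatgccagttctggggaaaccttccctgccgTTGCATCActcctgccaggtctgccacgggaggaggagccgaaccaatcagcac
Ppp1r15a: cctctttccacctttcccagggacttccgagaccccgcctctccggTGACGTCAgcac

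Eif2ak3 (ENSMUSG00000031668, GRCm38 chr6:70844515-70905245) encodes the sensor kinase PERK. In mice 1 to 5 of the LO group at 12 weeks its levels were 107, 112, 132, 99.1 and 111 CPM, and at 32 weeks 87.9, 85.6, 74.4, 96.5 and 87.4 CPM. On SO the levels were 108, 98.1, 104, 108 and 129.5 CPM at 12 weeks, then 93.8, 94.5, 84.6, 84.7 and 91.2 CPM at 32 weeks. On PF, Eif2ak3 measured 89.4, 98.4, 107, 106 and 96.6 CPM at 12 weeks against 83.2, 93.5, 115, 121 and 98.1 CPM at 32 weeks. Every LO and every SO mouse at 32 weeks lay below every mouse of the same diet at 12 weeks, whereas the PF groups overlapped. With counts scaled to library size alone, without TMM factors, the SO times overlapped and the LO times did not. At 32 weeks, PF mice 3, 4 and 5 were above all mice of the other diets.

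Atf4 (ENSMUSG00000042406, chr15:80255184-80257541) encodes the factor whose translation rises when eIF2 alpha is phosphorylated. On LO its levels in mice 1 to 5 were 152, 159, 129, 166 and 176 CPM at 12 weeks, with 128, 137, 125, 142 and 130.03 CPM at 32 weeks. The SO mice had 130.4, 97.6, 108, 148 and 162 CPM at 12 weeks, followed by 132, 104, 112, 125 and 115 CPM at 32 weeks. In PF mice Atf4 stood at 117, 137, 132, 132 and 156 CPM at 12 weeks and at 161, 128, 155, 133 and 137 CPM at 32 weeks. No pair of diets separated at either time, and the 5 lowest levels of the 30 all came from SO mice. The highest level over the 30 mice was 1.81 times the lowest.

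Ddit3 (ENSMUSG00000025408, chr10:127290774-127296288) encodes CHOP, a factor downstream of ATF4 that is known for promoting cell death under lasting ER stress. GENCODE M21 lists another gene with this symbol that overlaps it and is absent from the count files; an effect of the overlap on its counts was not tested. On LO at 12 weeks its levels were 12.8, 13.6, 19.9, 33.3 and 93.9 CPM in mice 1 to 5. On PF at 12 weeks they were 12.7, 18.5, 12.4, 31.5 and 43.9 CPM, and on SO 11.9, 8.37, 7.90, 9.74 and 16.8 CPM. Mice 4 and 5 of LO and PF stood out at 12 weeks, while mice 1 and 3 of PF and mice 1 and 2 of LO were within the range of the SO mice. At 32 weeks Ddit3 was 12.0, 9.96, 8.70, 11.6 and 8.60 CPM on LO. The other diets gave 12.1, 8.98, 8.89, 8.00 and 9.27 CPM (SO) and 15.8, 9.48, 13.2, 8.32 and 7.80 CPM (PF) at 32 weeks. The diets overlapped at 32 weeks, and no mouse reached the levels of mice 4 and 5 of LO and PF at 12 weeks.

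Atf3 (ENSMUSG00000026628, chr1:191170296-191218039) encodes a factor induced by ATF4 and also, as an immediate early gene, by many other stimuli. Levels in mice 1 to 5 at 12 weeks were 8.96, 48.7, 40.998, 86.9 and 301 CPM on LO. They were 15.3, 75.5, 47.8, 96.0 and 144 CPM on PF at that time. The SO mice at 12 weeks had 10.2, 7.94, 40.1, 9.98 and 22.5 CPM. Mouse 1 was the lowest of its group on LO and on PF and lay among the SO mice, and mouse 5 was the highest of both. At 32 weeks Atf3 was 16.3, 32.5, 12.3, 10.3 and 20.5 CPM on LO, while SO mice held to 16.0, 18.1, 19.6, 16.5 and 18.4 CPM. On PF at 32 weeks Atf3 was 16.4, 51.6, 68.7, 16.5 and 11.6 CPM, with mice 2 and 3 above all others and mouse 5 below all SO mice. Over the 30 mice the highest level was 37.9 times the lowest for Atf3 and 12.0 times for Ddit3.

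Asns (ENSMUSG00000029752, chr6:7675169-7693254) encodes asparagine synthetase, an ATF4 target whose window holds the response element core. At 32 weeks its levels in mice 1 to 5 were 60.3, 59.8, 73.3, 67.9 and 70.0 CPM on PF. On SO at 32 weeks they were 48.2, 56.3, 49.7, 52.2 and 55.0 CPM, and on LO 53.6, 53.5, 55.5, 65.8 and 63.6 CPM. Every PF mouse was above every SO mouse at 32 weeks, and the LO mice overlapped both. At 12 weeks Asns was 59.1, 86.3, 99.4, 60.8 and 63.2 CPM on PF. The SO and LO mice at 12 weeks had 54.1, 58.3, 57.4, 68.2 and 80.6 CPM (SO) and 55.7, 72.8, 57.1, 58.7 and 50.2 CPM (LO). Mice 2 and 3 of PF were the highest at 12 weeks, and all 3 diets overlapped.

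Psat1 (ENSMUSG00000024640, chr19:15904678-15947337) encodes phosphoserine aminotransferase, an enzyme of serine synthesis. In PF mice 1 to 5 at 12 weeks it measured 14.9, 15.2, 21.7, 13.1 and 15.4 CPM. The LO mice at 12 weeks had 10.5, 10.6, 10.8, 14.0 and 12.3 CPM, and the SO mice 12.6, 13.9, 12.1, 11.9 and 14.3 CPM. At 12 weeks 4 of the 5 PF mice were above every LO and SO mouse, and PF mouse 4 lay below LO mouse 4. At 32 weeks Psat1 was 13.1, 14.3, 16.3, 14.6 and 17.5 CPM on LO, and on PF 12.9, 19.1, 12.1, 11.4 and 14.95 CPM. The SO mice at 32 weeks had 12.1, 13.4, 12.98, 17.5 and 19.2 CPM, and the diets overlapped throughout.

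For Chac1, Sesn2 and Trib3 the diets overlapped at both times. Chac1 (ENSMUSG00000027313, chr2:119351229-119354381) ranged from 0.863 to 3.48 CPM over the 30 mice, with 29 to 133 counts per mouse. Sesn2 (ENSMUSG00000028893, chr4:132492032-132510501) encodes sestrin 2, which restrains the growth kinase mTORC1, and ranged from 11.7 to 20.96 CPM. Trib3 (ENSMUSG00000032715, chr2:152337422-152344032) encodes a pseudokinase that restrains ATF4 and CHOP, and ranged from 1.70 to 4.36 CPM. Mouse 1 was the highest of its group for Sesn2 in 5 of the 6 groups (all but PF at 12 weeks) and for Trib3 in 3 of the 6 (LO at both times and PF at 32 weeks).

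Ppp1r15a (ENSMUSG00000040435, chr7:45522916-45526268) encodes GADD34, which directs a phosphatase to eIF2 alpha and so closes the feedback loop. On LO its levels in mice 1 to 5 were 23.8, 22.2, 27.1, 27.0 and 44.8 CPM at 12 weeks, then 19.9, 19.9, 18.9, 16.5 and 17.4 CPM at 32 weeks. In PF mice it was 21.2, 27.6, 22.0, 33.3 and 35.5 CPM at 12 weeks, with 23.3, 23.6, 24.2, 19.9 and 16.6 CPM at 32 weeks. On SO the levels were 23.0, 16.8, 22.3, 20.1 and 25.5 CPM at 12 weeks, against 22.6, 17.4, 23.0, 15.4 and 18.1 CPM at 32 weeks. All LO mice at 32 weeks were below all LO mice at 12 weeks, and mice 4 and 5 of PF and mouse 5 of LO were the highest at 12 weeks. With counts scaled to library size alone, without TMM factors, the LO times overlapped.

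At 12 weeks the largest diet differences among the 10 genes were those of Atf3 and Ddit3, higher on average on PF and LO than on SO, and none passed edgeR's test. Mean Atf3 was 75.8 ± 48.9 CPM (mean ± SD, n = 5) on PF and 18.2 ± 13.6 CPM on SO. The log2 fold change of PF over SO was 2.07 (standard error 0.78; edgeR's quasi-likelihood test with Benjamini-Hochberg adjustment over all genes, adjusted p = 0.409). Mean Ddit3 was 23.8 ± 13.6 CPM on PF and 10.9 ± 3.61 CPM on SO, a log2 fold change of 1.13 (standard error 0.52; edgeR adjusted p = 0.602; 0.0486 to 0.674 over 7 alternative settings, below 0.05 in 1). Psat1 differed between PF and SO by a log2 fold change of 0.32 (standard error 0.13; edgeR adjusted p = 0.507; log2 fold change 0.18 without PF mouse 3). At an adjusted p below 0.05 edgeR called 0 of the 10 genes and DESeq2 0, and 3 of the 10 had an unadjusted edgeR p below 0.05, compared with 7.99% of the 15873 genes tested. The groups did not overlap for 0 of the 10 genes, compared with 1.57% of genes. The log2 fold change was above 0 in 7 of the 10 with a median of 0.26, while the median of all genes was -0.01.

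Between PF and LO at 12 weeks, Psat1 showed the smallest adjusted p of the 10 genes. Its mean was 16.1 ± 3.29 CPM on PF and 11.6 ± 1.53 CPM on LO, a log2 fold change of 0.47 (standard error 0.13; edgeR adjusted p = 0.367; DESeq2 adjusted p = 0.0843). Over 7 alternative settings its adjusted p lay between 0.0843 and 0.583. Both tools called 0 of the 10 genes; 1 of the 10 had an unadjusted edgeR p below 0.05, and 2 by DESeq2, compared with 9.24% of genes in edgeR. Non-overlapping groups were found for 0 of the 10 and for 1.59% of genes. Ddit3 had a log2 fold change of -0.54 (edgeR adjusted p = 0.804) and Atf3 one of -0.36 (edgeR adjusted p = 0.937). The median log2 fold change of the 10 genes was -0.10, against -0.00 for all genes.

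Between LO and SO at 12 weeks, Ddit3 and Atf3 again showed the largest differences. Mean Ddit3 on LO was 34.7 ± 34.1 CPM, which gives a log2 fold change over SO of 1.67 (standard error 0.53; edgeR adjusted p = 0.999). For Atf3 the LO mean was 97.3 ± 117 CPM, with a log2 fold change of 2.43 (standard error 0.79; edgeR adjusted p = 0.999). Leaving out mice gave log2 fold changes from 0.87 to 1.91 for Ddit3 and from 1.37 to 3.15 for Atf3 over 20 settings, both lowest without LO mouse 5, with edgeR adjusted p-values from 0.755 to 1 for both. Over 7 other alternative settings the Ddit3 log2 fold change lay between 1.28 and 1.67 and its adjusted p between 0.00486 and 1, below 0.05 in 1. Ppp1r15a was at 0.43 (edgeR adjusted p = 0.999; log2 fold change 0.22 without LO mouse 5) and Atf4 at 0.28 (edgeR adjusted p = 0.999). By both edgeR and DESeq2, 0 of the 10 genes were called and 4 had an unadjusted p below 0.05, compared with 4.28% of genes in edgeR. The groups did not overlap for 0 of the 10 and for 0.731% of genes. The median log2 fold change of the 10 genes was 0.09, against 0.00 for all genes. The 3 diet comparisons at a time point share groups, so they are not separate evidence.

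The immediate early genes, a list of 12 that includes Fos, Jun and Egr1, were measured beside Atf3 and Ddit3 in the 12-week mice. Their summed level was 346, 659, 405, 527 and 1225 CPM in LO mice 1 to 5. It was 395, 669.8, 360.1, 518 and 873 CPM in PF mice and 303, 231, 428, 266 and 308 CPM in SO mice, with Btg2 the most abundant gene of the list. Mouse 5 was the highest on LO and on PF, as it was for Atf3, Ddit3 and Ppp1r15a. Between PF and SO the list had a median log2 fold change of 0.97 with 12 of 12 above 0, and 7 of 12 had an unadjusted edgeR p below 0.05, compared with 7.99% of all genes. Between LO and SO the median was 1.05 with 12 of 12 above 0, and 9 of 12 were below that p, compared with 4.28%. Both tools called 0 of the 12 in either comparison at an adjusted p below 0.05. Leukocyte markers (Ptprc, Cd52 and Laptm5, with Laptm5 the most abundant at 12 weeks and 0 of 3 at 0) summed to 38.7, 21.5, 28.8, 57.3 and 41.7 CPM in LO mice at 12 weeks. The PF mice had 65.3, 75.9, 75.8, 44.8 and 30.1 CPM of these markers and the SO mice 24.8, 25.3, 25.5, 24.9 and 29.6 CPM. Between PF and SO, edgeR called 0 of the 3 leukocyte markers, 3 had an unadjusted p below 0.05, and DESeq2 called 3, compared with 1.31% of all genes, with a median log2 fold change of 1.28. The part of the immediate early response or of leukocytes in the Atf3 and Ddit3 differences was not tested.

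**Figure D2:**
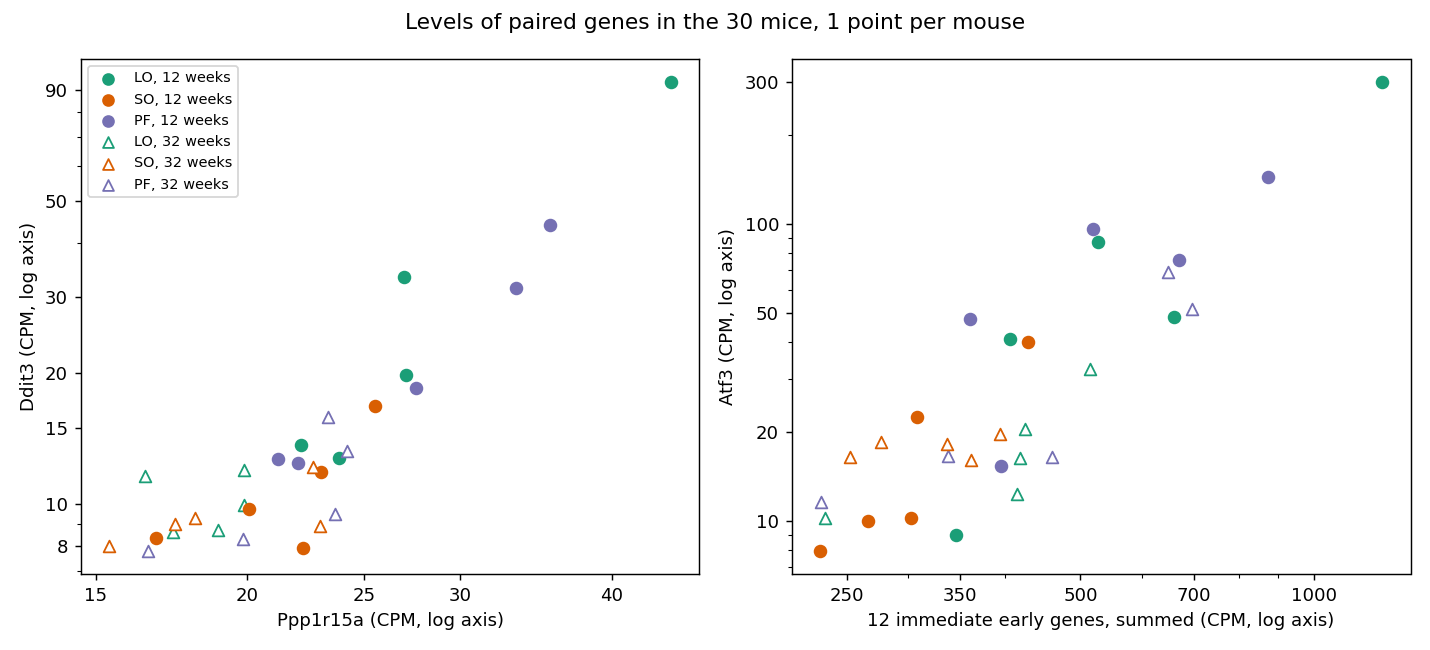
Ddit3 against Ppp1r15a and Atf3 against the summed level of 12 immediate early genes, in CPM, with 1 point for each of the 30 mice.

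At 32 weeks the difference of PF over SO was clearest for Asns, the only one of the 10 genes whose groups did not overlap. Its mean was 66.2 ± 5.98 CPM on PF and 52.3 ± 3.41 CPM on SO (n = 5 each), a log2 fold change of 0.36 (standard error 0.08). The edgeR adjusted p was 0.204, while DESeq2 gave an adjusted p of 0.00967. Atf4 had means of 143 ± 14.5 CPM on PF and 118 ± 11.1 CPM on SO, a log2 fold change of 0.30 (edgeR adjusted p = 0.318; DESeq2 adjusted p = 0.0738; 0.0336 to 0.793 over 8 alternative settings). Eif2ak3 stood at a log2 fold change of 0.20 (edgeR adjusted p = 0.451). Ddit3, whose mean was 10.9 ± 3.47 CPM on PF and 9.46 ± 1.57 CPM on SO, had a log2 fold change of 0.23 (edgeR adjusted p = 0.694). The largest log2 fold change of the 10 was that of Atf3, 0.90 (edgeR adjusted p = 0.470), and that of Trib3 was 0.37 (edgeR adjusted p = 0.516). edgeR called 0 of the 10 genes and DESeq2 1 (Asns), compared with 0.726% of the genes DESeq2 tested. Unadjusted, 3 of the 10 had an edgeR p below 0.05, compared with 10.8% of the 16218 genes tested, and 1 of the 10 did not overlap, compared with 2.17% of genes. The log2 fold change was above 0 in 8 of the 10 with a median of 0.26, and the median of all genes was -0.00. Across 8 alternative settings, of which 1 keeps only mice 1 to 4 of each diet, the Asns log2 fold change lay between 0.34 and 0.36 and its adjusted p between 0.00232 and 0.793, below 0.05 in 2. With levels not scaled by TMM factors, 0 of the 10 genes were without overlap between PF and SO at 32 weeks, compared with 3.03% of genes.

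Between PF and LO at 32 weeks, Eif2ak3 had a log2 fold change of 0.25 (edgeR adjusted p = 0.469) and Asns one of 0.19 (edgeR adjusted p = 0.488). Atf3 had the largest of the 10, 0.85 (edgeR adjusted p = 0.615). Both tools called 0 of the 10; 2 had an unadjusted edgeR p below 0.05 and 3 by DESeq2, compared with 8.6% of genes in edgeR. The groups did not overlap for 0 of the 10 and for 1.13% of genes. Between LO and SO at 32 weeks, only Asns had an unadjusted edgeR p below 0.05, with a log2 fold change of 0.17 (edgeR adjusted p = 0.9997). Both tools called 0 of the 10, and 1 had an unadjusted p below 0.05 by edgeR (Asns) and 1 by DESeq2 (Atf4), compared with 3.48% of genes in edgeR. Non-overlapping groups were found for 0 of the 10 and for 0.641% of genes. The medians of the 10 genes were 0.14 for PF over LO and 0.13 for LO over SO, against 0.01 and -0.00 for all genes.

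**Figure D3:**
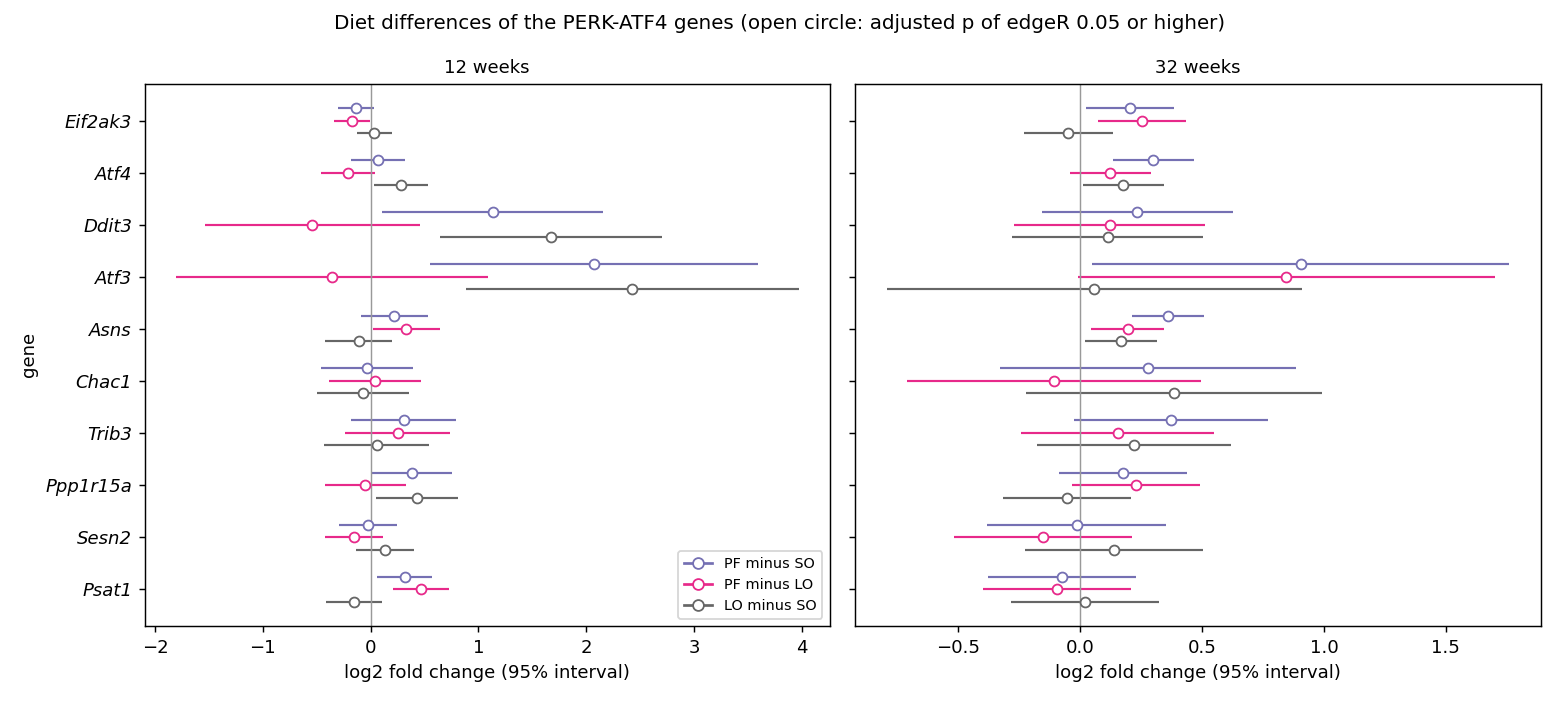
Log2 fold changes of the 10 genes between diets at 12 and 32 weeks with 95% intervals. All points are open because every edgeR adjusted p was 0.05 or above.

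Other features of the tissue were read beside Asns for PF and SO at 32 weeks. The 10 most abundant genes of each mouse held on average 29.5% of counts on PF and 23.6% on SO. The ventral prostate secretion list (Sbp, Spink1, Mmp7, Pbsn and Msmb) had a median log2 fold change of 0.40, with 2 of 5 at an unadjusted edgeR p below 0.05, compared with 10.8% of all genes. Adipocyte markers (Adipoq, Plin1, Cidec and Fabp4) had a median of 1.84 and 3 of 4 below that p, and haemoglobin genes of red blood cells a median of 2.68 with 3 of 3. edgeR called 0 markers of these lists, and DESeq2 called 2, both of red blood cells, compared with 0.726% of all genes. The part of these features in the Asns difference was not tested.

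Between 12 and 32 weeks, the clearest differences of the 10 genes were on LO, where Ddit3, Eif2ak3 and Ppp1r15a fell. Mean Ddit3 was 34.7 ± 34.1 CPM at 12 weeks and 10.2 ± 1.59 CPM at 32 weeks (n = 5 each), a log2 fold change of -1.77 (standard error 0.42; edgeR adjusted p = 0.0228). Mean Eif2ak3 was 112 ± 12.2 CPM at 12 weeks and 86.4 ± 7.92 CPM at 32 weeks, a log2 fold change of -0.38 (standard error 0.09; edgeR adjusted p = 0.0261). Mean Ppp1r15a was 28.97 ± 9.10 CPM and then 18.5 ± 1.53 CPM, a log2 fold change of -0.65 (standard error 0.17; edgeR adjusted p = 0.0382). These are the sensor kinase, the cell death factor and the feedback subunit, and in each all 32-week mice were below all 12-week mice. The times did not overlap for 3 of the 10, compared with 4.25% of genes. With levels not scaled by TMM factors, the times overlapped on LO for Ddit3 and Ppp1r15a, but not for Eif2ak3. Atf3 had a log2 fold change of -2.40 (edgeR adjusted p = 0.0511; DESeq2 adjusted p = 0.0136; 0.0136 to 0.0691 over 4 alternative settings). Atf4 stood at -0.24 (edgeR adjusted p = 0.207), and Psat1, the only one of the 10 with a value above 0, at 0.38 (edgeR adjusted p = 0.133). edgeR called 3 of the 10 genes, all lower at 32 weeks, compared with 2.7% of the 16605 genes tested, and DESeq2 called 4, compared with 6.56%. The median log2 fold change of the 10 was -0.24, against -0.01 for all genes.

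Each of these calls was lost when some single mice were left out. Without LO mouse 5 at 12 weeks, the Ddit3 log2 fold change was -0.95 (adjusted p = 0.0958). The Ddit3 call was also lost without mouse 3 at 12 weeks (log2 fold change -1.90, adjusted p = 0.0505) and without mouse 3 (-1.71, adjusted p = 0.0785) or 5 (-1.70, adjusted p = 0.0618) at 32 weeks. The Eif2ak3 call was lost without mouse 2 (log2 fold change -0.36, adjusted p = 0.0799) or 3 (-0.30, adjusted p = 0.117) at 12 weeks. It was also lost at 32 weeks without mouse 1 (-0.37, adjusted p = 0.0529), 2 (-0.36, adjusted p = 0.0554), 3 (-0.32, adjusted p = 0.120) or 5 (-0.36, adjusted p = 0.0618). The Ppp1r15a call was lost without mouse 5 at 12 weeks (log2 fold change -0.41, adjusted p = 0.118), and without mouse 2 (-0.71, adjusted p = 0.0587) or 3 (-0.65, adjusted p = 0.0873) at 12 weeks. At 32 weeks it was lost without mouse 1 (log2 fold change -0.66, adjusted p = 0.0645), 2 (-0.66, adjusted p = 0.0592), 3 (-0.64, adjusted p = 0.104), 4 (-0.59, adjusted p = 0.0542) or 5 (-0.60, adjusted p = 0.0980). For Atf3, not called with all mice, leaving out mice gave log2 fold changes from -2.86 to -1.32 and adjusted p-values from 0.0294 to 0.296 over 15 settings. All of these p-values are from edgeR's quasi-likelihood test with Benjamini-Hochberg adjustment.

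On SO, the 10 genes had log2 fold changes from 12 to 32 weeks with a median of -0.18 and 9 of 10 below 0, against -0.00 for all genes. edgeR called 0 of the 10, compared with 6.46% of genes, and DESeq2 called 1 (Eif2ak3), compared with 8.03%; 3 of the 10 had an unadjusted p below 0.05 by either tool, compared with 19.7% of genes in edgeR. Eif2ak3 had a log2 fold change of -0.29 (edgeR adjusted p = 0.0590, DESeq2 adjusted p = 0.0305, 0.0305 to 0.0654 over 4 alternative settings). Leaving out mice gave it edgeR adjusted p-values from 0.0417 (without SO mouse 2 at 12 weeks) to 0.294 over 15 settings, below 0.05 in 1. Chac1 had one of -0.68 (edgeR adjusted p = 0.139), with mean levels of 2.03 ± 0.558 CPM at 12 weeks and 1.27 ± 0.232 CPM at 32 weeks. The levels of the 2 times did not overlap for 2 of the 10 (Eif2ak3 and Chac1, both lower at 32 weeks), compared with 7.43% of genes. With levels not scaled by TMM factors, both of these genes overlapped between the times on SO. Asns stood at -0.29 (edgeR adjusted p = 0.202).

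On PF, Ddit3 had a log2 fold change of -1.12 from 12 to 32 weeks (edgeR adjusted p = 0.362) and Ppp1r15a one of -0.38 (edgeR adjusted p = 0.448). The largest of the 10 was that of Atf3, -1.20 (edgeR adjusted p = 0.543). Leaving out mice gave -1.44 to -0.67 for Ddit3 and -0.48 to -0.18 for Ppp1r15a over 15 settings. Eif2ak3 was at 0.04 (edgeR adjusted p = 0.923). edgeR called 0 of the 10 genes, compared with 0.0301% of genes, and DESeq2 0, compared with 0.295%; 2 of the 10 had an unadjusted p below 0.05 by either tool, compared with 10.2% of genes in edgeR. The median of the 10 was -0.22, against 0.00 for all genes.

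**Figure D4:**
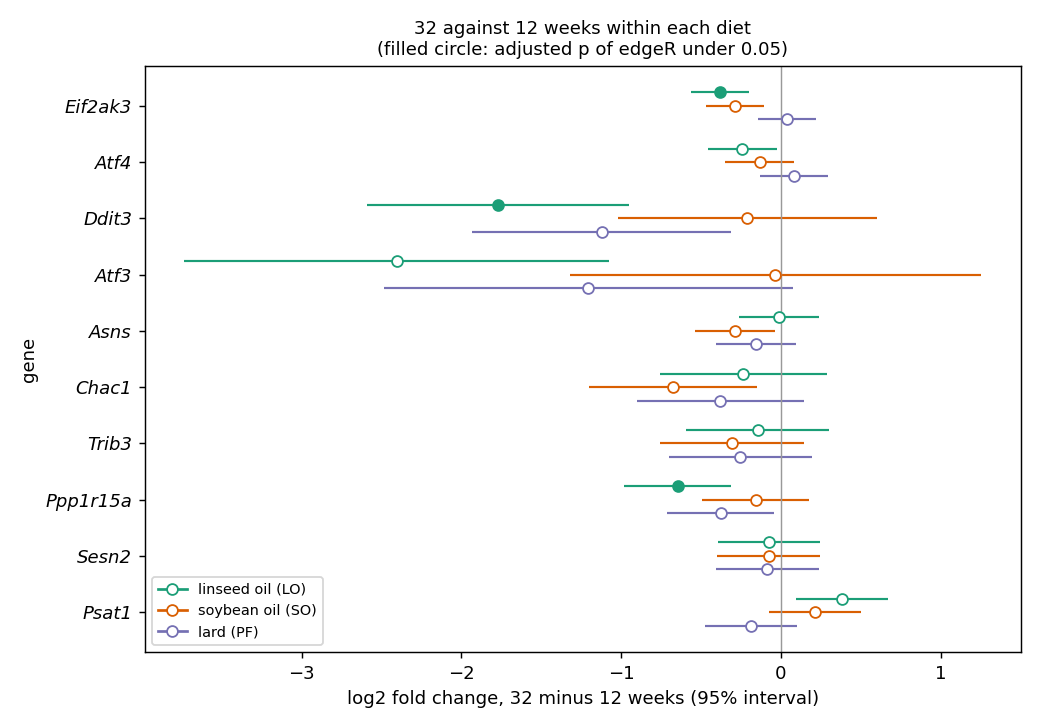
Log2 fold changes of the 10 genes from 12 to 32 weeks within each diet with 95% intervals. Filled points have an edgeR adjusted p below 0.05.

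Whether the change with time differed between diets was tested directly. For Eif2ak3, PF and LO differed in their change by a log2 fold change of 0.42 (standard error 0.13; edgeR adjusted p = 0.481), and PF and SO by 0.33 (edgeR adjusted p = 0.402). LO and SO differed for Eif2ak3 by -0.09 (edgeR adjusted p = 0.9998). For Ddit3, LO and SO differed by -1.56 (edgeR adjusted p = 0.9998), and PF and LO by 0.65 (edgeR adjusted p = 0.835). For Ppp1r15a the values were -0.49 between LO and SO (edgeR adjusted p = 0.9998) and 0.27 between PF and LO (edgeR adjusted p = 0.835). Without LO mouse 5 at 12 weeks the LO and SO value was -0.73 for Ddit3, and leaving out mice gave -1.76 to -0.73 over 25 settings. So the falls called on LO did not pass the test of a difference from the other diets. Psat1 differed between PF and LO by -0.57 (edgeR adjusted p = 0.536), Atf4 by 0.32 (edgeR adjusted p = 0.638), and Atf3 between LO and SO by -2.37 (edgeR adjusted p = 0.9998). Leaving out mice gave -2.92 to -1.28 for this Atf3 value and -0.74 to -0.33 for that of Psat1. edgeR and DESeq2 called 0 of the 10 genes in all 3 of these tests. Of all genes, edgeR called 0% in each, and DESeq2 called 0.224% (PF and SO), 0.0702% (PF and LO) and 0% (LO and SO). Of the 10, 1 had an unadjusted edgeR p below 0.05 for PF and SO, compared with 9.49% of genes, 3 for PF and LO, compared with 7.79%, and 2 for LO and SO, compared with 3.33%; the counts by DESeq2 were the same.

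Markers of other cells also differed with time. On LO, edgeR called 3 of 4 basal epithelium markers (median log2 fold change 0.77) and 3 of 4 plasma cell markers (median 2.44) higher at 32 weeks, and 1 of 5 ventral prostate secretion genes lower (median -0.54, 2 of 5 above 0), compared with 2.7% of all genes called. On SO, it called 3 of 3 leukocyte markers (median 1.85), 2 of 3 macrophage (1.22), 4 of 4 T cell (2.31), 3 of 3 B cell (3.32), 3 of 4 plasma cell (2.54) and 2 of 4 basal markers (0.53) higher, compared with 6.46% of all genes called. Of the secretion genes it called 1 of 5 lower on SO, where the list went both ways (median 0.11, 3 of 5 above 0). On PF, edgeR and DESeq2 called 0 markers of these lists, and 0 had an unadjusted edgeR p below 0.05. The 10 most abundant genes held on average 29.4% of counts on LO at 12 weeks and 22.7% at 32 weeks, 31.8% and 23.6% on SO, and 30.5% and 29.5% on PF. The part of cell make-up in the falls of Ddit3, Eif2ak3 and Ppp1r15a was not tested.

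Within groups, several of the 10 genes moved together from mouse to mouse. Log2 CPM was centred in each group, and the 45 pairs were tested over the 30 mice by a two-sided permutation test within groups (100000 permutations, Benjamini-Hochberg over the 45 pairs). At an adjusted p below 0.05 there were 6 pairs, all with r above 0, and 4 of them also passed by rank. The share of pairs of other genes that would pass was not computed. The 6 pairs are therefore not shown to be particular to these genes. Ddit3 and Ppp1r15a had r = 0.842 (permutation test, p = 1e-05, the smallest possible, adjusted p = 0.00045) and Spearman's rho = 0.771 (permutation test, p = 2e-05). Their r was 0.927 at 12 weeks, 0.585 at 32 weeks and 0.742 without the 2 farthest mice. Atf3 and Ppp1r15a had r = 0.721 (permutation test, p = 0.0002, adjusted p = 0.0045), rho = 0.688 (permutation test, p = 0.00014) and r = 0.645 without the 2 farthest mice. Ppp1r15a, whose promoter window holds the cyclic AMP response element, was the only gene of the 10 paired in this way with both Ddit3 and Atf3 by r and by rank.

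Atf4 and Ddit3 had r = 0.581 (permutation test, p = 0.00098, adjusted p = 0.0147) and rho = 0.653 (permutation test, p = 0.0004), with r = 0.576 without the 2 farthest mice. For Chac1 and Trib3 the values were r = 0.544 (permutation test, p = 0.00227, adjusted p = 0.0255), rho = 0.573 (permutation test, p = 0.00287) and r = 0.579 without the 2 farthest mice. Trib3 and Sesn2 had r = 0.545 (permutation test, p = 0.00625, adjusted p = 0.0498), r = 0.493 without the 2 farthest mice and, by rank, rho = 0.491 (permutation test, p = 0.0146, adjusted p = 0.126). Ddit3 and Atf3 had r = 0.664 (permutation test, p = 0.00664, adjusted p = 0.0498), r = 0.492 without the 2 farthest mice and rho = 0.501 (permutation test, p = 0.0197, adjusted p = 0.127). The r of Ddit3 and Atf3 was 0.772 at 12 weeks and 0.160 at 32 weeks.

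None of the 17 pairs with Asns or Psat1 passed. No pair with Eif2ak3 passed either, and its smallest adjusted p was that with Asns (r = 0.444, permutation test, adjusted p = 0.0856). With Atf4, Eif2ak3 had r = 0.141 (permutation test, adjusted p = 0.687). The lowest r of the 45 was that of Sesn2 and Psat1 (r = -0.399, permutation test, p = 0.043, adjusted p = 0.194; by rank, adjusted p = 0.478). The genes most like single members over the 30 mice, among 16595 ranked by the same r, came from different groups. Atf3 was followed most closely by Btg2 (0.930), Dusp1 (0.897), Trib1 (0.882), Jun (0.824) and Rgs1 (0.813). For Atf4 the nearest were Dnajb1 (0.796), Rbm3 (0.795), Nxt1 (0.792), Siah2 (0.786) and Nrbp1 (0.762). For Asns they were Ptrh2 (0.839), Copz2 (0.822), Vcp (0.814), Hars (0.806) and Clptm1l (0.800). Btg2, Dusp1 and Jun are immediate early genes of the list above, and Hars encodes a transfer RNA synthetase.

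Other genes of the pathway were followed as lists beside the 10. Between PF and SO at 12 weeks the median log2 fold change was 0.03 for 15 genes of eIF2 kinases and translation control, 0.01 for 10 of amino acid synthesis and -0.03 for 9 of amino acid transport. It was 0.05 for 13 transfer RNA synthetase genes, -0.02 for 16 tested of 18 other ATF4 or CHOP targets and 0.17 for 12 genes of ER chaperones and other branches. These 12 are called the chaperone genes below, though some, such as Xbp1 and Herpud1, do not encode chaperones. edgeR and DESeq2 called 0 genes of each list. The lists had 0, 0, 0, 0, 2 and 1 genes at an unadjusted edgeR p below 0.05, compared with 7.99% of all genes. The median of the 10 genes was 0.26 in the same comparison, and that of all genes -0.01.

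Between PF and SO at 32 weeks the chaperone genes had the larger median, 0.40 with 12 of 12 above 0, next to 0.26 for the 10 genes. Their summed level lay between 5238 and 6574 CPM on PF and between 4593 and 5072 CPM on SO, without overlap. With levels not scaled by TMM factors, these sums overlapped between PF and SO. edgeR called 0 of these 12 at an adjusted p below 0.05, 10 had an unadjusted edgeR p below 0.05, compared with 10.8% of all genes, and DESeq2 called 7, compared with 0.726%. Among them, Manf had a log2 fold change of 0.57 (edgeR adjusted p = 0.204) and Hspa5 one of 0.54. The transfer RNA synthetase genes had a median of 0.15 with 13 of 13 above 0; edgeR called 0, 4 had an unadjusted p below 0.05, and DESeq2 called 1 (Yars, log2 fold change 0.32). For eIF2 kinases and translation control the median was 0.12 with 12 of 15 above 0, and for the other targets 0.18 with 12 of 16. Amino acid synthesis stood at 0.07 and transport at 0.06, where Pycr1, an enzyme of proline synthesis, had a log2 fold change of 0.31. In these 4 lists both tools called 0 genes, and 6, 0, 1 and 0 had an unadjusted edgeR p below 0.05. The immediate early list had a median of 0.54 with 0 called by either tool and 2 of 12 below that p.

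Against LO, the chaperone genes had medians of 0.26 at 12 weeks and 0.30 at 32 weeks on PF, while the 10 genes had -0.10 and 0.14. edgeR called 0 of the 12 at both times, and 6 and 7 had an unadjusted edgeR p below 0.05, compared with 9.24% and 8.6% of all genes. DESeq2 called 1 at each time, compared with 0.522% and 0.585%: Dnajb9 at 12 weeks (log2 fold change -0.53) and Hspa5 at 32 weeks (0.40).

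**Figure D5:**
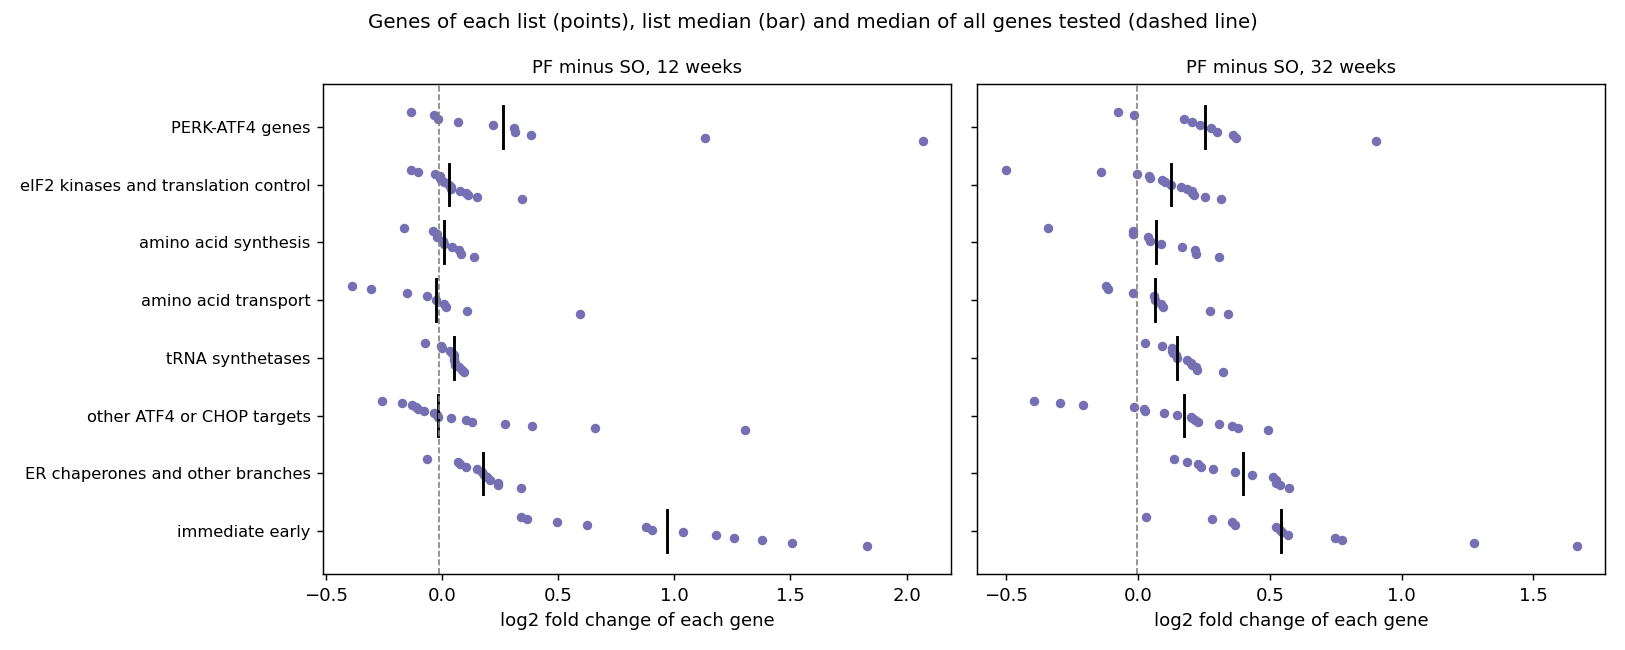
Log2 fold changes of PF over SO at 12 and 32 weeks for each gene of the 10 and of the other lists. Bars are list medians and the dashed line is the median of all genes tested.

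With time, the chaperone list had a median below 0 on every diet. On LO edgeR called 2 of 12 lower (Herpud1, log2 fold change -0.78, and Hyou1) with a list median of -0.21, and on SO 2 of 12 lower (Creld2, -0.67, and Hyou1, -0.50) with a median of -0.33. Of all genes it called 2.7% on LO and 6.46% on SO. Dnajc3, which encodes an inhibitor of PERK, fell on LO (-0.33) and on SO (-0.34) as the only gene called among the 15 of eIF2 kinases and translation control. On SO, edgeR called Aldh18a1 (-0.52) and Pycr1 (-0.56) of proline synthesis lower at 32 weeks, among 10 amino acid synthesis genes. Also lower were the glutamine transporter gene Slc1a5 (-0.34), among 9 transport genes, and Stc2 (-0.88), among 18 other ATF4 or CHOP targets. Of these 18, Pmaip1 was higher (1.93), at low mean levels of 0.335 CPM at 12 weeks and 1.29 CPM at 32 weeks. On LO edgeR called 0 genes of amino acid synthesis, transport, transfer RNA synthetases and other targets. Of these, 3, 7, 5 and 7 had an unadjusted edgeR p below 0.05, compared with 20.5% of all genes, and DESeq2 called 0, 1, 0 and 2, compared with 6.56%. On SO it called 0 transfer RNA synthetase genes, with 6 at an unadjusted p below 0.05, compared with 19.7% of all genes, and 1 called by DESeq2. The immediate early list had 0 called on LO (3 at an unadjusted p below 0.05, 2 by DESeq2) and 0 on SO (1 and 1), with medians of 0.02 and 0.41. On PF both tools called 0 genes of every list, and 5 of the 12 chaperone genes had an unadjusted edgeR p below 0.05, compared with 10.2% of all genes, with a list median of -0.22.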

How the data were processed

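Gene counts per mouse, as deposited by the authors, came from 30 libraries of ventral prostate RNA (TruSeq Stranded mRNA, Illumina HiSeq). The authors aligned the reads to GRCm38.p6 with TopHat and counted them with HTSeq; the versions, the annotation release and the strand setting are not given in the sources used here. Counts on genes per mouse ran from 27590631 to 41301707 (median 33684704), and HTSeq set aside reads without a feature (6.67 to 12.2%), ambiguous reads (0.831 to 1.18%) and reads not uniquely aligned (16.0 to 20.3%), which were left out of library sizes and tests. At this depth the 10 genes had from 29 (Chac1) to 9906 (Atf3) counts per mouse.

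Groups came from the labels of diet and weeks of treatment. Symbols came from GENCODE M21 (37693 of 39179 genes) and promoters from RefSeq. edgeR 4.0.16 (limma 3.58.1, R 4.3.3) filtered genes with filterByExpr, scaled libraries by TMM and fitted a quasi-likelihood model, for each time point (15873 and 16218 genes) and over the 30 mice (16605 genes) for time and for its interaction with diet. Genes were called at a Benjamini-Hochberg adjusted p below 0.05 over all genes tested. Levels are TMM-scaled CPM, and log2 CPM used a prior count of 2. Tables and permutation tests used numpy 2.4.6, scipy 1.17.1 and pandas 2.3.3. Code was tested on simulated data. Alternatives were DESeq2 1.42.0, RLE size factors, no filter, a block for mouse number, fits of only the diets compared or of all 30 mice, only mice 1 to 4 at 32 weeks, a prior count of 0.5 and leaving out single mice or all mice of a number. DESeq2 with the block, DESeq2 without all mice of a number and CPM without TMM were added later, with the values known. The 10 genes and the lists of other pathway genes and cell markers were chosen with earlier results of these data known. Of the marker genes, 1 is not reported here.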

Additional observations from a re-analysis of the deposited data

Results flagged for a closer look

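In each of the 60 combinations of gene and group, the mouse farthest from the rest was compared with its nearest neighbour by Dixon's ratio (critical value 0.71 for 5 mice). By chance this flags about 1 in 20, or 3 of 60, and 9 were flagged. That rate assumes normally distributed values, while the ratio was taken on CPM and not on log2 CPM. Mouse 5 on LO at 12 weeks was the highest for Ddit3 (93.9 CPM, nearest 33.3), Atf3 (301 CPM, nearest 86.9) and Ppp1r15a (44.8 CPM, nearest 27.1). Chac1 was flagged in mouse 1 on LO at 32 weeks (3.48 CPM, nearest 1.28) and, as the lowest, in mouse 2 on SO at 32 weeks (0.863 CPM, nearest 1.32). Trib3 was highest in mouse 1 on PF at 32 weeks (3.80 CPM, nearest 2.64). Sesn2 was highest in mouse 1 on LO (20.6 CPM, nearest 15.01) and in mouse 1 on SO (20.96 CPM, nearest 13.002), both at 32 weeks. Psat1 was highest in mouse 3 on PF at 12 weeks (21.7 CPM, nearest 15.4). Why these mice differ was not tested.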

How the results depend on the processing

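Values under alternative settings were followed for 31 of 120 combinations of gene and comparison, those with an unadjusted edgeR p below 0.05 or a DESeq2 call, and 0 of these 767 values reversed. Of 2323 values of the other 89 combinations, 145 reversed. Both counts hold mice 1 to 4 at 32 weeks and the same fit as a leave-out of number 5. The genes called, Ddit3, Eif2ak3 and Ppp1r15a on LO with time, lost the call in 7, 9 and 13 of 19 settings, 29 of 57 values in all. Of the 710 values of genes not called, 10 gained a call. Counts of calls also depended on the setting, and the cause was not tested. Where edgeR called 0 genes, DESeq2 called 225 (PF and SO) and 75 (PF and LO) at 12 weeks, and 109 (PF and SO), 85 (PF and LO) and 6 (LO and SO) at 32 weeks. From 12 to 32 weeks it called 1089 genes on LO (edgeR 448) and 52 on PF (edgeR 5), and for the change with time 44 (PF and SO) and 12 (PF and LO). A fit of all 30 mice called 2 genes for PF and LO at 12 weeks and 2 at 32 weeks, a fit of only LO and SO called 1 at 32 weeks, and without the filter 0 were called on PF with time. Of the 10 genes, DESeq2 called 1 for PF and SO at 32 weeks (Asns) and 1 on SO with time (Eif2ak3). On LO with time it called Ddit3, Eif2ak3 and Ppp1r15a, as edgeR did, and also Atf3 (DESeq2 adjusted p = 0.0136). The Ppp1r15a fall on LO had an adjusted p of 0.0595 without the filter. With CPM not scaled by TMM, 1 of the 10 did not overlap between PF and LO at 12 weeks (Eif2ak3, lower on PF), compared with 2.08% of genes.

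Leaving out single mice, or all mice of a number, gave these ranges of genes called by edgeR: 0 to 131 (PF and SO) and 0 to 1 (PF and LO) at 12 weeks, 0 to 1 (PF and SO) at 32 weeks, 0 to 1375 (LO), 226 to 1556 (SO, 1073 with all mice) and 0 to 7 (PF) with time, and 0 to 3 for the change with time (PF and SO). Of the 10 genes, 0 to 4 were called on LO and 0 to 1 on SO with time. DESeq2 without all mice of a number called 0 to 1 of the 10 for PF and LO at 12 weeks and 0 to 2 for PF and SO at 32 weeks.

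Mice share only a number across groups. Residuals of mice with the same number had a mean r of 0.0559 at 12 weeks (5 of 15 pairs over 0.1), 0.132 at 32 weeks (10 of 15) and 0.141 across times (24 of 45); for different numbers it was -0.0137, -0.0291 and -0.0340. With a block for mouse number edgeR called 668 genes on LO, 1224 on SO and 6 on PF with time, and 3 of the 10 genes on LO, as without it. DESeq2 with the block called 141 (PF and SO), 140 (PF and LO) and 12 (LO and SO) genes at 12 weeks and 206, 169 and 19 at 32 weeks. Of the 10 it called 1 for PF and SO (Ddit3, log2 fold change 0.96, adjusted p = 0.0486) and 1 for LO and SO (Ddit3, 1.28, adjusted p = 0.00486) at 12 weeks, and 2 for PF and SO at 32 weeks (Asns and Atf4). Depth limits Chac1 and Trib3 most, whose counts per mouse begin at 29 and 52.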
